A study of Mus musculus with 15 samples.

Results

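The 2 Iroquois gene clusters of the mouse held peaks of Polycomb repressive complex 1 (PRC1) in mesoderm precursors and in embryonic stem cells (ESCs). They are IrxA on chromosome 13, with Irx1, Irx2 and Irx4, and IrxB on chromosome 8, with Irx3, Irx5 and Irx6. Peaks were taken by position alone, from 71.9 to 73.6 Mb of chromosome 13 and from 94.2 to 95.3 Mb of chromosome 8 in the mm9 build. The rule uses no peak value, although the windows were proposed with earlier results of these data known. These windows of 1.7 and 1.1 Mb held 75 of the 30692 peaks in all 5 lists, 41 in IrxA and 34 in IrxB. By list, the clusters held 16 of 4165 peaks of Mel18 in mesoderm precursors, 8 of 3679 of Cbx2, 14 of 8641 of Ring1b, 19 of 7614 of RYBP and 18 of 6593 of Mel18 in ESCs.

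The study followed Polycomb proteins as mouse ESCs became cardiac mesoderm. Early cardiac mesoderm precursors (MES) were differentiated from the E14Tg2A line with BMP4, typically at 0.1 to 0.3 ng/ml, and the ESCs were the undifferentiated parent line, kept in 2i medium with LIF. MES chromatin was immunoprecipitated for Mel18, Cbx2, Ring1b and RYBP, and ESC chromatin for Mel18, each with 5 ug of antibody in 1 ChIP-seq sample. No knockdown or knockout is named for these 5 samples, all of which come from a single line. The day of differentiation is not given in the sources used here, and cell identity was not checked by expression, since the RNA-seq samples and the IgG sample were not analysed here. The same lot of Mel18 antibody was used in both states.

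PRC1 is a chromatin complex whose catalytic subunit Ring1b ubiquitinates histone H2A, and it keeps developmental genes silent in cells that do not need them. Mel18, also called Pcgf2, is the PCGF subunit that defines a canonical form of the complex. Cbx2 brings canonical PRC1 to trimethylated H3K27 through its chromodomain, and RYBP belongs to variant PRC1, which lacks Cbx proteins. Iroquois genes encode homeodomain transcription factors of the TALE class that pattern the nervous system, heart and limb, and in vertebrates they lie in clusters with long stretches of noncoding DNA between the genes.

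In the heart, Irx4 helps to establish ventricular identity, Irx3 acts in the fast conduction system, and Irx5 shapes the gradient of repolarization across the ventricular wall. Irx1 and Irx2 are expressed in the ventricular septum of the mouse heart, and Irx6 acts in bipolar cells of the mouse retina. In rising coordinates, the RefSeq gene table gives the protein-coding order Adamts16, Irx1, Irx2, Irx4, Ndufs6 on chromosome 13 and Fto, Irx3, Irx5, Irx6, Mmp2 on chromosome 8. That table, in which 6 of 6 members matched, is of the GRCm38.p6 build and the peaks are on mm9. The peaks were therefore named by coordinates and were not assigned to genes.

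Promoter sequences of 300 bases were found for 3 of the 6 members in the RefSeq table of the GRCm38.p6 build. Irx2 and Irx4 stand for IrxA and Irx3 for IrxB. They are shown because PRC1 in mouse cells lies mostly at CpG islands. Every CG is in capitals. The Irx2 promoter is chr13:72628570-72628869 on the plus strand, that of Irx4 is chr13:73260247-73260546 on the plus strand and that of Irx3 is chr8:91801605-91801904 on the minus strand. These positions are of GRCm38.p6 and cannot be set against the mm9 peaks.
Irx2 promoter: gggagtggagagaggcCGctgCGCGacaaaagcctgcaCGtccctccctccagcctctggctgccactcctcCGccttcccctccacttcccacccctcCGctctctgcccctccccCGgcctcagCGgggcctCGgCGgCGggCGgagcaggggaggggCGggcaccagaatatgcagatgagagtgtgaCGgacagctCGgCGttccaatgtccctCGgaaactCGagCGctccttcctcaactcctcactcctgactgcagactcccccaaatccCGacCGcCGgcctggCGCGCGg
Irx4 promoter: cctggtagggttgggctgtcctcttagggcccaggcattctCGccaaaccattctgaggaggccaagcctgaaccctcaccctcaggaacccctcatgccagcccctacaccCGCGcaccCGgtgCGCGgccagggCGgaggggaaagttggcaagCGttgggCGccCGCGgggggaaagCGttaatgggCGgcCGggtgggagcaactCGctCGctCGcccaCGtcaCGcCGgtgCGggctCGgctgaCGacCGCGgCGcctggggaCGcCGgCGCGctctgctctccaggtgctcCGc
Irx3 promoter: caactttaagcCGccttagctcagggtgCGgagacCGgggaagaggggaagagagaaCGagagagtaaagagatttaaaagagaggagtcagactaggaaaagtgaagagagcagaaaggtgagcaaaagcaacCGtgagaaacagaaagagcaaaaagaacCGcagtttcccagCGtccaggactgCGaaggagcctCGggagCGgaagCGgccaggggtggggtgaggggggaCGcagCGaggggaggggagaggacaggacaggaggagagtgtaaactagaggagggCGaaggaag

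The Irx4 promoter held 31 CG, the Irx2 promoter 25 and the Irx3 promoter 14, against a median of 7 over 32841 promoters of that length in the table. CG reads the same on both strands and does not overlap itself. At least 1 CG was found in 94.6% of those promoters, at least 14 in 36.3%, at least 25 in 18.4% and at least 31 in 10.6%. The ratio of observed to expected CG, which corrects for the number of C and G, was 0.828 for Irx4, 0.723 for Irx2 and 0.748 for Irx3, against a median of 0.384. The Irx3 promoter had fewer C and G, at 56.0%, than those of Irx2 at 69.0% and Irx4 at 70.7%. This is a description of 3 sequences, and whether CG content goes with the peaks was not tested.

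The peaks fell into few groups, some long and some short. When peaks of all lists within 10 kb of each other were joined, IrxA gave 4 groups, called A1 to A4 here, and IrxB 6, called B1 to B6. Peaks of all 5 lists were present in 7 of these 10 groups, namely A1, A2, A3, B1, B4, B5 and B6. Over the genome, 18.0% of 10122 groups held all 5 lists. IrxA had 3 such groups and IrxB 4, and each cluster has 3 Iroquois genes. Groups were not placed on genes here, for the reason above.

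Group A1 spanned 10.1 kb (72093631 to 72103731), A2 19.2 kb (72759454 to 72778662) and A3 15.7 kb (73395061 to 73410720). Group B1 spanned 13.1 kb (94320508 to 94333602), B4 13.4 kb (94878286 to 94891722), B5 2.21 kb (94983590 to 94985797) and B6 6.52 kb (95196707 to 95203221). The 3 groups of IrxA and B1 and B4 of IrxB were thus 10 kb or longer, and B5 and B6 were short. Of all 1821 groups with 5 lists, 25.6% spanned 10 kb or more, and their median span was 4517 bp. A2 ranked 177 of 1821 by span, A3 258, B4 316, B1 322, A1 462, B6 647 and B5 1687.

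**Figure D1:**
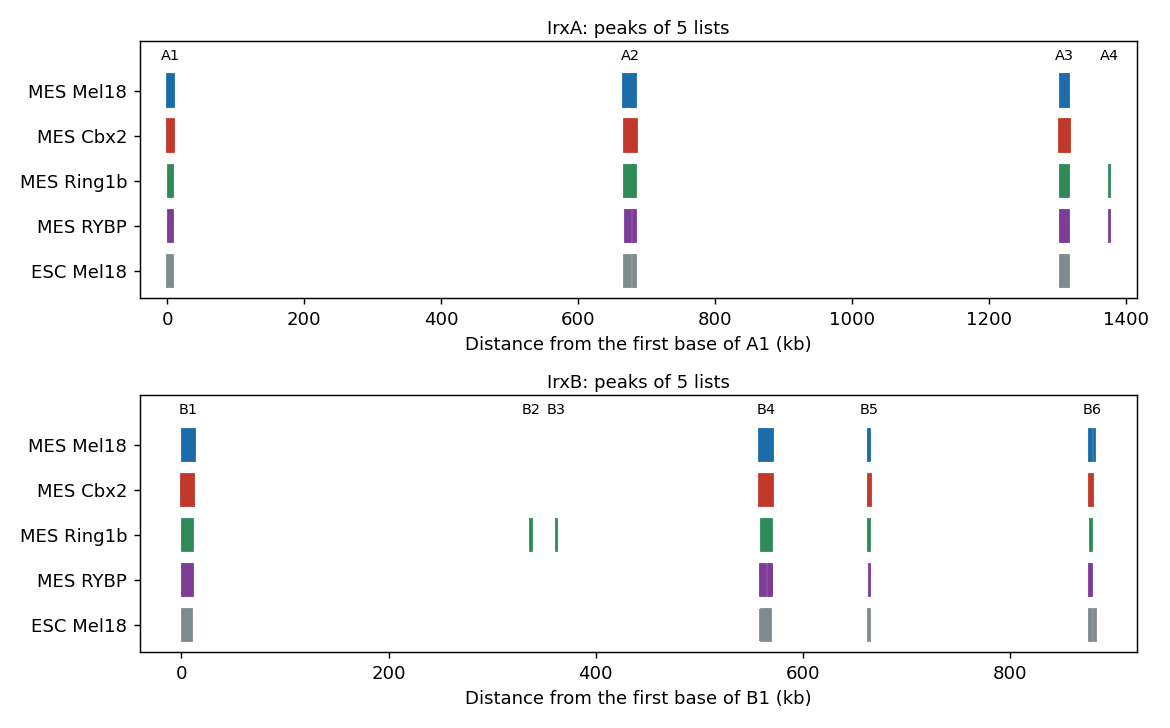
Peaks of the 5 lists along the IrxA and IrxB clusters, with the distance in kb from the first base of A1 or B1 on the x axis and 1 row per list; each block is a peak with a thin outline, so that the narrowest look wider than they are. The 3 long groups of IrxA are separated by 656 and 616 kb, and Ring1b alone has peaks in B2 and B3.

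Between the groups the clusters were free of peaks over long distances. The gap from A1 to A2 was 656 kb and that from A2 to A3 616 kb, with 0 peaks of any list. In IrxB, B1 lay 324 kb from B2, B3 195 kb from B4, B4 91.9 kb from B5 and B5 211 kb from B6. In IrxA, MES Mel18 peaks covered 2.38% of the window, Cbx2 peaks 2.61%, Ring1b peaks 2.24%, RYBP peaks 1.72% and ESC Mel18 peaks 1.87%. In IrxB the shares were 2.89, 2.85, 2.48, 2.09 and 2.39% in the same order of lists. Each list thus covered a slightly larger share of the IrxB window, which is the shorter of the windows.

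The other 3 groups were small and held Ring1b. A4 (73468096 to 73469368, 1.27 kb) had a Ring1b peak of 1038 bp and a RYBP peak of 1148 bp and no peak of Mel18 in either state or of Cbx2. It lay 57.4 kb beyond A3. B2 (94657248 to 94658598, 1351 bp) and B3 (94682448 to 94682942, 495 bp) each had a Ring1b peak alone. Groups of Ring1b with RYBP alone made up 14.0% of all groups, and groups of Ring1b alone 16.1%. Within the Ring1b list, 64.2% of peaks scored lower than that of A4, 17.5% lower than that of B2 and 10.1% lower than that of B3. The peaks of B2 and B3 were therefore low in their list, and a missing peak of another list does not show that the protein was absent there.

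Outside the windows, the nearest group held peaks of 1 or 2 lists on 3 of the 4 sides. Groups with few lists are common: over the genome, 4334 of 10122 groups held 1 list, and 18.0% held all 5. Before A1 the next peak was of Ring1b (71827516 to 71828180), 265 kb away, and after A4 it was of Ring1b too (73604412 to 73605151), 135 kb away. Before B1, the next group held Ring1b and RYBP (93431462 to 93433571), 887 kb away. After B6 the next group held all 5 lists (95483449 to 95486262), 280 kb away. With windows widened by 200 kb, IrxA held 9 groups in place of 4, and IrxB 7 in place of 6. The flanks of IrxA thus held more than these nearest groups.

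The long groups were wide in every list, and Cbx2 was the least broken. In A2 a single Cbx2 peak of 18748 bp (72759915 to 72778662) spanned the length that was divided into 4 peaks of MES Mel18, 3 of Ring1b, 5 of RYBP and 4 of ESC Mel18. Single Cbx2 peaks also spanned A1 (10079 bp), B1 (12281 bp) and B4 (13379 bp). Over the 7 groups, MES Mel18 averaged 2.29 peaks a group, Cbx2 1.14, Ring1b 1.57, RYBP 2.57 and ESC Mel18 2.57. Over all 1821 groups with 5 lists the averages were 1.47, 1.31, 1.63, 1.60 and 1.78 in the same order. Among groups of 10 kb or more, the 5 Iroquois groups averaged 2.40 peaks for MES Mel18, 1.20 for Cbx2, 1.80 for Ring1b, 3.20 for RYBP and 3 for ESC Mel18, against 2.25, 1.96, 2.68, 3.02 and 3.14 over all 466. Cbx2 and Ring1b were thus below the averages of both sets, MES Mel18 and RYBP above both, and ESC Mel18 above that of all groups and below that of the long ones. How a stretch is split into peaks also depends on read depth, which was unknown for all 5 samples, and on the caller.

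**Figure D2:**
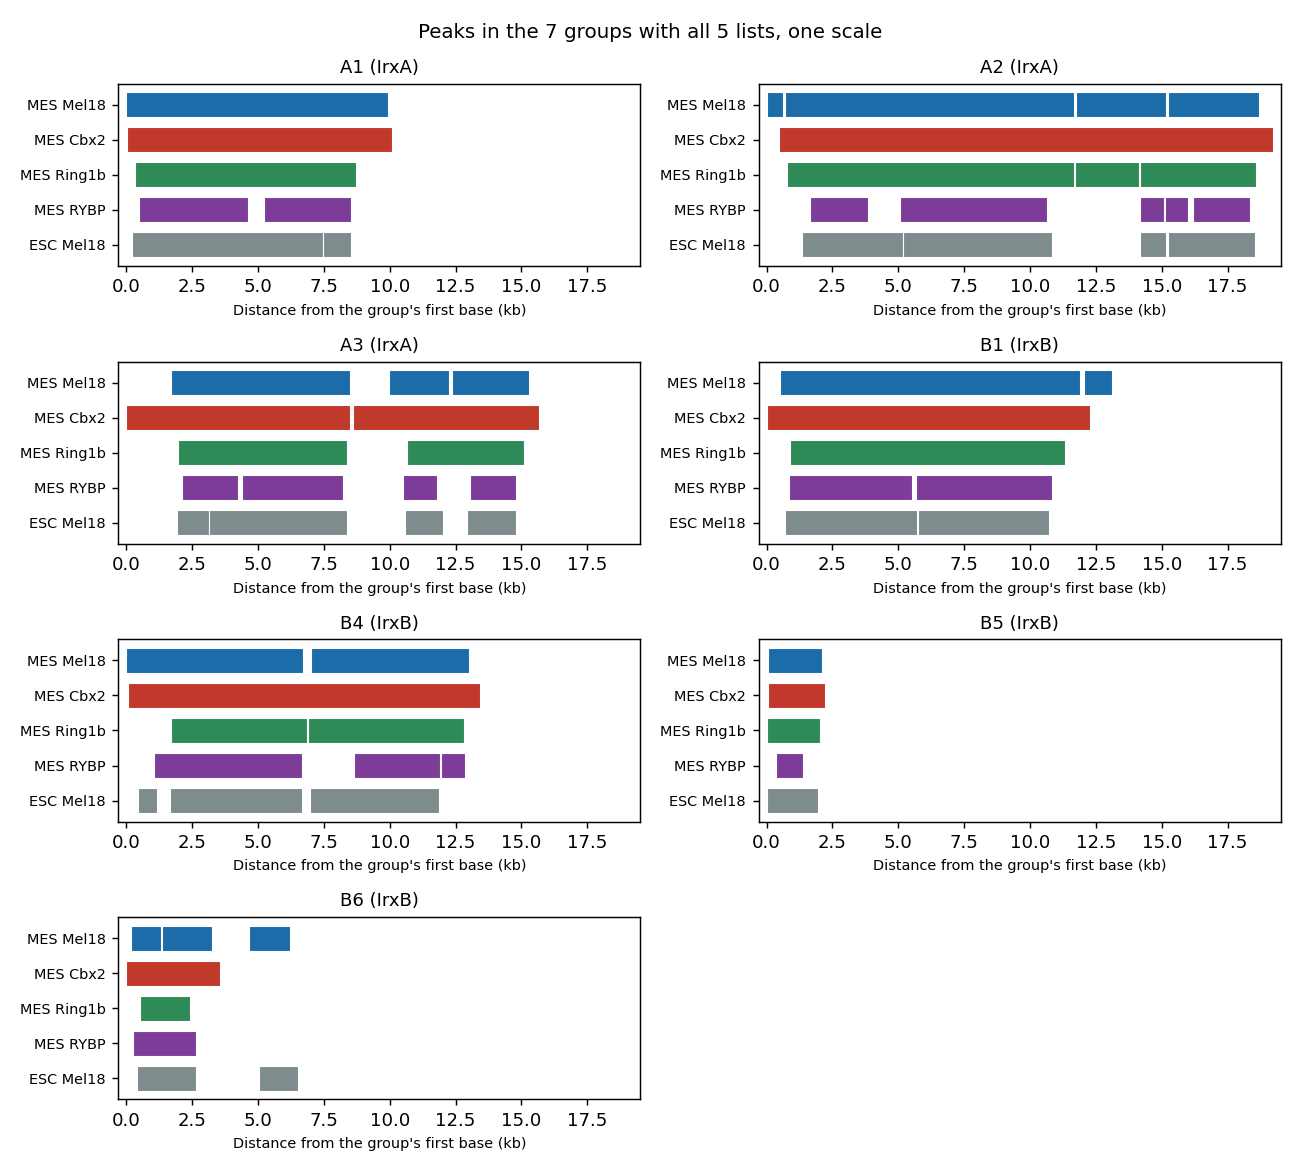
Peaks in each of the 7 groups with all 5 lists, with the distance from the group's first base in kb on 1 common x scale and 1 row per list; white lines mark where 1 peak ends and the next begins, and are wider than gaps of under about 100 bp. RYBP and ESC Mel18 leave nearly the same middle part of A2 without peaks, where MES Mel18, Cbx2 and Ring1b have them.

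Peaks in the clusters were mostly wider than the typical peak of their list. The 8 MES Mel18 peaks of IrxA had a median width of 3438 bp and the 8 of IrxB 1981 bp, against 1855 bp over the list. Cbx2 peaks had a median of 9289 bp in IrxA and 7927 bp in IrxB, against 2508 bp. Ring1b peaks had medians of 4453 and 2046 bp in IrxA and IrxB, against 1178 bp over the list, and RYBP peaks 2143 and 3257 bp, against 1476 bp. ESC Mel18 peaks had medians of 2564.5 bp in IrxA and 3561 bp in IrxB, against 1103 bp. Every list thus had a larger median in each cluster than over all of its peaks, and the 2 clusters differed in order: Mel18 in MES, Cbx2 and Ring1b were wider in IrxA, and RYBP and Mel18 in ESCs in IrxB.

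A width of 5 kb or more was reached by 6 of 16 MES Mel18 peaks, 6 of 8 Cbx2 peaks, 6 of 14 Ring1b peaks, 3 of 19 RYBP peaks and 5 of 18 ESC Mel18 peaks. Over all peaks, 10.9% of the MES Mel18 list, 17.2% of the Cbx2 list, 4.25% of the Ring1b list, 1.60% of the RYBP list and 3.94% of the ESC Mel18 list were that wide. The widest MES Mel18 peaks were 10981 bp in A2 (72760148 to 72771128) and 11388 bp in B1 (94321010 to 94332397), ranking 148 and 135 of 4165. The widest Cbx2 peaks were that of A2, which ranked 54 of 3679, and that of B4 (94878344 to 94891722), which ranked 127.

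The catalytic subunit Ring1b had its widest peaks at the same places as MES Mel18, with 10873 bp in A2 (72760234 to 72771106) and 10429 bp in B1 (94321411 to 94331839), ranking 130 and 139 of 8641. RYBP had its widest peaks in A2 (72764507 to 72770101, 5595 bp) and B4 (94879353 to 94884963, 5611 bp), ranking 89 and 86 of 7614. ESC Mel18 had them in A1 (72093839 to 72101098, 7260 bp) and B4 (94879931 to 94884958, 5028 bp), ranking 117 and 258 of 6593. The narrowest peaks of the clusters reached down to 495 bp, for Ring1b in B3.

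**Figure D3:**
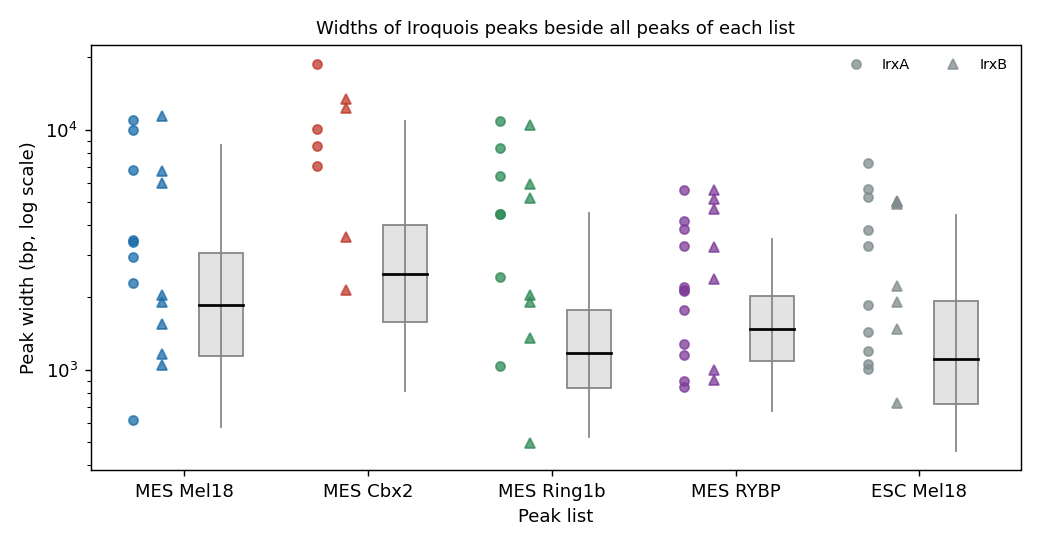
Width of every peak in the clusters in bp on a log axis, by list on the x axis, with circles for IrxA and triangles for IrxB; the box right of them gives the median and quartiles of all peaks of that list, with a line between the points that 5 and 95% of peaks lie below. Cbx2 peaks run from 2152 to 18748 bp, and RYBP peaks from 850 to 5611 bp.

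The deposited score of a peak, a value given by the authors on a scale that is not stated, was read only within each list. Values piled up at 3100, so peaks at that ceiling could not be ranked against each other. At or above it were 7 of 16 MES Mel18 peaks of the clusters, 4 of 8 of Cbx2, 5 of 14 of Ring1b and 4 of 18 of ESC Mel18. Over all peaks it was 8.98% of the MES Mel18 list, 9.05% of the Cbx2 list, 3.43% of the Ring1b list and 4.60% of the ESC Mel18 list. RYBP had 0 of 19 there, and the highest score of its whole list was 2764.74. Its highest-scoring peak in IrxA was that of A2 with 1082.43, which ranked 63 of 7614, and in IrxB that of B4 with 846.64, which ranked 129.

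High scores in the clusters stood in the long groups. In A1, A2, B1 and B4, each of MES Mel18, Cbx2, Ring1b and ESC Mel18 had at least 1 peak at the ceiling. In A3, MES Mel18 alone reached it. The highest scores of B5 were 953.42 for MES Mel18, 581.63 for Cbx2, 824 for Ring1b, 79.75 for RYBP and 630.4 for ESC Mel18, each a value on its own list's scale. In the Ring1b list 90.8% of peaks scored lower than that of B5, and in the RYBP list 29.7%.

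The first question was whether Mel18 lay at the clusters in both cell states. Of the MES Mel18 peaks, 14 of 16 overlapped an ESC Mel18 peak by at least 1 bp (87.5%, exact Clopper-Pearson 95% interval 61.7 to 98.4%), 7 of 8 in each cluster. Of the ESC Mel18 peaks, 18 of 18 overlapped a MES Mel18 peak (interval 81.5 to 100%). This was not so under every setting: it was 6 of 7 in IrxB with the upper 50% of each list by score. In IrxA it was 10 of 11 with windows widened by 200 kb. Over all peaks, 66.3% of MES Mel18 peaks and 52.6% of ESC Mel18 peaks overlapped the other state. Such intervals treat peaks as independent and cover counting error only, and peaks of 1 group are pieces of 1 stretch. With 1 sample per list, no test between states was possible.

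The 2 MES Mel18 peaks without an ESC Mel18 peak lay at the rims of long groups. In A2 it was the first peak (72759454 to 72760069, 616 bp), with a score of 53.7, and in B1 the last (94332554 to 94333602, 1049 bp), with 53.58. Both scored near the low end of their list, where 6.58 and 6.34% of peaks were lower. Both overlapped Cbx2 and neither overlapped Ring1b or RYBP.

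Base by base, the Mel18 stretch of ESCs lay inside that of MES. In the clusters 99.3% of the bases under ESC Mel18 peaks were also under MES Mel18 peaks, and 67.6% over all peaks. Conversely, 79.7% of the bases under MES Mel18 were under ESC Mel18, against 60.9% over all peaks. In the 7 groups with all lists, bases with ESC Mel18 and not MES Mel18 came to 396 of 79041, or 0.501% (6.01% over all groups with 5 lists). Bases with MES Mel18 and not ESC Mel18 were 18.5% there and 25.4% over all such groups.

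MES Mel18 covered more of each group than ESC Mel18 did. It covered 9.952 kb in MES and 8.311 kb in ESCs in A1, 18.473 and 13.731 kb in A2, and 12.055 and 9.712 kb in A3, with MES given first each time. In B1 it covered 12.437 kb in MES and 10.006 kb in ESCs, in B4 12.676 and 10.639 kb, in B5 2.051 and 1.912 kb, and in B6 4.615 and 3.709 kb. The ratio of MES to ESC covered length was above 1 in 7 of 7 groups, running from 1.07 in B5 to 1.35 in A2, with a median of 1.24. The median over all 1821 groups with 5 lists was also 1.24 (quartiles 1.01 to 1.61), with 76.4% above 1. Among groups of 10 kb or more, the median was 1.24 in the 5 Iroquois groups and 1.38 over all 466. The Iroquois median was thus that of all groups with 5 lists and below that of the long ones.

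Summed over a cluster, the ratio of MES to ESC Mel18 length was 1.27 in IrxA and 1.21 in IrxB, against 1.23 on the rest of chromosome 13, 1.19 on the rest of chromosome 8 and 1.11 over all peaks. In the 7 groups 14635 bases had MES Mel18 and no ESC Mel18, of which 8233 (56.3%) lay beyond the first or last base of ESC Mel18 and 6402 (43.7%) between them. The extra bases lay mostly beyond those ends in A1, B1, B4 and B5 and mostly between them in A2, A3 and B6. MES Mel18 started before ESC Mel18 in 6 of 7 groups and ended after it in 6 of 7, with shares of 70.4 and 70.3% over all groups with 5 lists. The longest extensions were 1362 bp at the start of A2 and 2373 bp at the end of B1. In B6 it ended 312 bp before ESC Mel18.

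**Figure D4:**
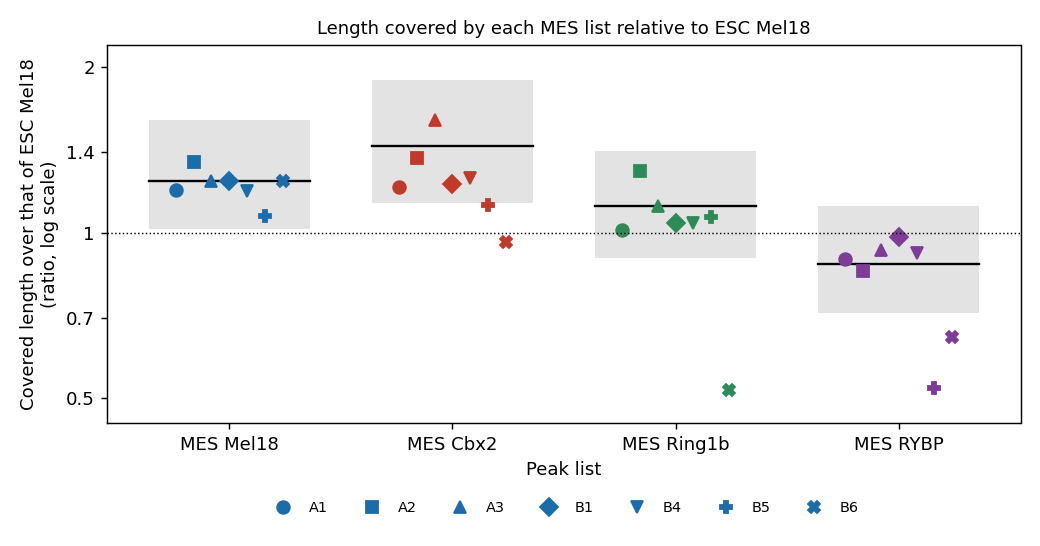
Length covered by each MES list divided by that covered by ESC Mel18, on a log y axis, in the 7 groups with all 5 lists (1 symbol each), over a grey band from the lower to the upper quartile of all 1821 such groups with their median as a black line. MES Mel18 is above 1 in 7 of 7 groups and RYBP in 0 of 7.

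The canonical subunit Cbx2 overlapped Mel18 by at least 1 bp at nearly every cluster peak. Of MES Mel18 peaks, 15 of 16 overlapped Cbx2 (93.8%, interval 69.8 to 99.8%), 8 of 8 in IrxA and 7 of 8 in IrxB, and 8 of 8 Cbx2 peaks overlapped MES Mel18. Over all peaks the shares were 73.3 and 74.1%, and the 73.3% lies inside the interval given for MES Mel18 peaks. Shares over all peaks, here and for the other lists, were not matched for peak width. When an overlap needed at least 50% of the shorter peak, Cbx2 met 7 of 8 MES Mel18 peaks in IrxA and 6 of 8 in IrxB. Ring1b and RYBP gave the same counts at that limit, for which the share over all peaks was not computed. Cbx2 covered 10.079 kb in A1, 18.748 in A2, 15.563 in A3, 12.281 in B1, 13.379 in B4, 2.152 in B5 and 3.573 in B6. It was the longest list in A1, A2, A3, B4 and B5, and MES Mel18 was the longest in B1 and B6. In A3, 22.0% of the bases with any peak were under Cbx2 alone, against 7.48% over the 7 groups and 9.81% over all groups with 5 lists.

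Cbx2 was also longer than ESC Mel18 at most groups. Their ratio ran from 1.13 in B5 to 1.60 in A3 and was 0.963 in B6, with a median of 1.23 against 1.44 over all groups with 5 lists (quartiles 1.13 to 1.90). Among groups of 10 kb or more it was 1.26 in the Iroquois groups and 1.55 over all. In A3, Cbx2 started 1930 bp before ESC Mel18, and in B6 it ended 2942 bp before it.

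Ring1b covered less than MES Mel18 in every group with 5 lists, by the least in B5 and the most in B6, and kept mostly within its bounds. Of MES Mel18 peaks, 13 of 16 overlapped Ring1b (81.3%, interval 54.4 to 96.0%), and 81.2% did over all peaks, so that the clusters were at the background. Of Ring1b peaks, 11 of 14 overlapped MES Mel18, against 42.4% over all, and the other 3 were those of A4, B2 and B3. Ring1b covered 8.406 kb in A1, 17.75 in A2, 10.848 in A3, 10.429 in B1, 11.078 in B4, 2.046 in B5 and 1.918 in B6. Its length was between 1.01 and 1.29 times that of ESC Mel18 in 6 groups and 0.517 times in B6, with a median of 1.04 against 1.12 over all groups with 5 lists. In long groups the medians were 1.04 and 1.28.

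The variant subunit RYBP was the shortest of the 5 lists in 6 of the 7 groups, and Ring1b was in B6. It covered 7.448 kb in A1, 11.707 in A2, 9.021 in A3, 9.822 in B1, 9.772 in B4, 0.997 in B5 and 2.391 in B6. Its ratio to ESC Mel18 was under 1 in 7 of 7 groups, from 0.521 in B5 to 0.982 in B1, with a median of 0.896. Over all groups with 5 lists the median was 0.876 and 33.4% were above 1. For the long Iroquois groups it was 0.919, against 0.847 over all long groups. RYBP peaks overlapped MES Mel18 in 18 of 19 cases, against 45.9% over all, and the one that did not was that of A4. Of MES Mel18 peaks, 13 of 16 overlapped RYBP (72.4% over all peaks), and these same 13 overlapped all of Cbx2, Ring1b and RYBP, against 57.7%. In IrxA the overlap with RYBP was 7 of 8 (87.5%), and 4 of 7 (57.1%) with the upper 50% of each list by score or with lists of equal length.

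**Figure D5:**
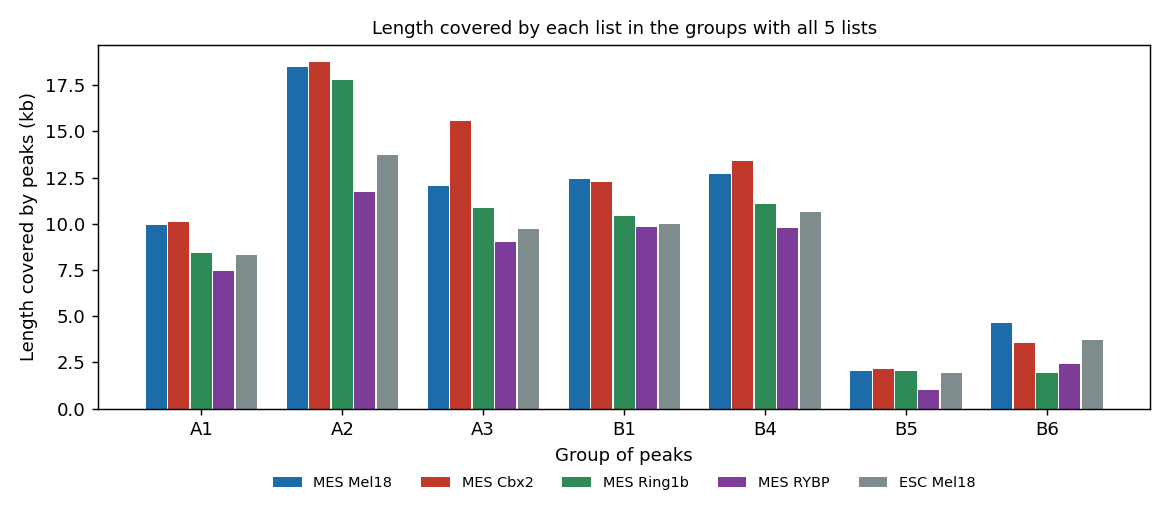
Length covered by peaks in kb, on the y axis, for each list in the 7 groups with all 5 lists; each bar is 1 list from 1 sample, with no error to show. Cbx2 or MES Mel18 is the longest in each group and RYBP the shortest in 6 of the 7.

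RYBP nested inside Cbx2 at the 7 groups. Bases with RYBP and without Cbx2 came to 0%, against 3.48% over all groups with 5 lists. Bases with Cbx2 and without RYBP came to 31.1%, against 41.1%. These are shares of pooled bases. How many of all groups with 5 lists have RYBP wholly inside Cbx2 was not counted, so the nesting may be common. Outside the 7 groups, the RYBP peak of A4 lay where Cbx2 had none. Bases under all 5 lists made up 61.5% in the 7 groups, 39.7% in all groups with 5 lists and 37.6% in those of 10 kb or more. By group this share was 73.6% in A1, 60.3% in A2, 56.8% in A3, 73.7% in B1, 60.8% in B4, 45.2% in B5 and 34.9% in B6. The short groups B5 and B6 thus shared the least.

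Within A2, RYBP and ESC Mel18 left nearly the same stretch empty. ESC Mel18 had no peak from 72770289 to 72773610 (3322 bp) and RYBP none from 72770102 to 72773624 (3523 bp). There, Ring1b had a peak of 2440 bp (72771162 to 72773601), and MES Mel18 and Cbx2 peaks ran across nearly all of it. In the Ring1b list, 86.7% of peaks scored lower than that peak. Ring1b, MES Mel18 and Cbx2 without RYBP made up 31.3% of A2, against 15.4% over the 7 groups, 21.0% over all groups with 5 lists and 26.4% over those of 10 kb or more. Among the 7 groups, the short group B5 alone had a larger share of this combination than A2, with 993 of its 2208 bases.

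A gap shared by more lists lay in A3. It was 1474 bp for MES Mel18, 97 bp for Cbx2, 2273 bp for Ring1b, 2267 bp for RYBP and 2187 bp for ESC Mel18. In B4 RYBP had a gap of 1982 bp, where the gaps of MES Mel18, Ring1b and ESC Mel18 were 322, 20 and 296 bp. A gap between called peaks shows that no peak was called there, not that the protein was absent.

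Group B6 departed from the others in its last part. There a MES Mel18 peak (95201367 to 95202909, 1543 bp) and an ESC Mel18 peak (95201750 to 95203221, 1472 bp) overlapped with no peak of Cbx2, Ring1b or RYBP. This left 1160 bp with Mel18 in both states and no other subunit, 21.4% of the bases with a peak in B6. That combination was at 0 in the other 6 groups, and it made up 0.303% of the bases pooled over all groups with 5 lists. How many of all those groups hold such a stretch was not counted, so the share in B6 has no like background. In their own lists, 41.0% of MES Mel18 peaks and 67.5% of ESC Mel18 peaks scored lower than these Mel18 peaks of B6. The other subunits have lists from MES alone, so for ESCs B6 is described by Mel18 alone.

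ESC Mel18 peaks of the clusters were mostly on MES subunits too. Of 18, 17 overlapped Cbx2 (50.8% over all peaks), 16 Ring1b (64.9%) and 17 RYBP (61.6%). In IrxA it was 10 of 10 for each of these lists, and in IrxB 7, 6 and 7 of 8. The exceptions were the last peak of B6, missed by all 3 lists, and the first peak of B4 (94878734 to 94879459, 726 bp), missed by Ring1b.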

How the data were processed

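Peak lists of 5 ChIP-seq samples, 1 per list, were used as the authors deposited them: chromosome, start, end and 1 score per peak, with a MACS tag in the peak names per the files. Reads were placed on mm9, and Bowtie and TopHat are named, per the submitters' processing notes. The caller's version and settings, the control and any pooling of replicates are not given in the sources used here. Files state no scale for the deposited score. Read depth was unknown.

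Starts were converted to count from 1. Peaks of all lists within 10 kb were joined into groups, an overlap needed at least 1 bp, and covered lengths counted each base once per list. Python 3.11.15, numpy 2.4.6, scipy 1.17.1 and matplotlib 3.10.9 were used. Overlaps were checked against bedtools 2.31.1, and the code was tested on simulated data. Shares have exact Clopper-Pearson 95% intervals. Since each group was 1 sample, no test was made. All 6 genes were named, as were groups with all 5 lists or 1 list, and the widest and highest-scoring peaks. Other peaks and gaps were chosen after their values were seen. The members, lists and windows were chosen with earlier results of these data known. Alternatives changed the windows, the joining distance, the overlap, the peaks used by score and the lengths of the lists.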

Additional observations from a re-analysis of the deposited data

How the results depend on the processing

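Over 16 results and 94 alternatives, 81 values lay within the reported share's 95% interval or within 1.5 times the reported count or ratio, 13 moved further and 0 reversed. Only the ratios of covered length could count as reversed, by crossing 1, and counts and shares could not. The intervals are wide, so the 81 include falls: in IrxA the overlap of MES Mel18 with RYBP was 57.1% (4 of 7) with lists of equal length, and also when each list kept its upper 50% by score, against 87.5% as reported. Under the same settings IrxB held 4 groups in place of 6, and 3 with all 5 lists in place of 4. The overlap of ESC Mel18 with MES Mel18, 100% as reported, was 85.7% (6 of 7) in IrxB with the upper 50%. In IrxA it was 90.9% (10 of 11) with windows widened by 200 kb. With windows widened by 200 kb, IrxA held 9 groups in place of 4. The other 12 that moved were shares of MES Mel18 peaks, all of which became 100%. In IrxA these were the overlap with ESC Mel18 and that with Ring1b, each with peaks of a list within 1 kb joined first (4 of 4), with the upper 50% of each list by score (7 of 7) and with lists of equal length of 3679 peaks (7 of 7), and the overlap with RYBP with joined peaks (4 of 4). In IrxB they were the overlap with ESC Mel18 under joined peaks (5 of 5), the upper 50% (5 of 5) and equal lengths (7 of 7), and those with Cbx2 and Ring1b under the upper 50% (5 of 5 each). Joining leaves fewer peaks, and the score limits leave out the low-scoring peaks at the rims. In IrxB the upper 50% also left out the last MES Mel18 peak of B6 (score 115.63), which overlaps no Cbx2, Ring1b or RYBP peak. With lists of equal length that peak stayed, and the IrxB overlaps with Cbx2 and Ring1b were 85.7% (6 of 7 each). The ratio of MES to ESC Mel18 length stayed between 1.23 and 1.27 in IrxA and between 1.10 and 1.21 in IrxB. No paired analysis was possible because each list came from 1 sample. Unknown read depth limits every statement on width and on missing peaks.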
